A study of Sus scrofa with 6 samples.

Results

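Notch receptors, their ligands, the glycosyltransferase LFNG and the target genes HES1, HEY1 and NRARP were followed in cultured pig cells. The labels name them immature Sertoli cells, and the treatment was a stable form of vitamin C. The members were the rows of the deposited gene count table whose symbol was NOTCH1, NOTCH2, NOTCH3, JAG1, JAG2, DLL1, HES1, HEY1, LFNG or NRARP. Of these 10 symbols 9 had a row among the 17670 genes of the table, and DLL1 was not analysed here. The receptors NOTCH2 and NOTCH3, the ligand JAG1 and the target HES1 were 1.45-fold to 1.80-fold lower with the treatment. The ligand JAG2 was 1.58-fold higher, NOTCH1 and LFNG differed by less, and HEY1 and NRARP were nearly uncounted in both groups.

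Sertoli cells nurse the germ cells inside the seminiferous tubule. By their labels the cells used here were immature Sertoli cells from pig testes at 80 to 90 days of gestation. All were cultured in minimum essential medium with 10% fetal bovine serum and antibiotics. The control group had 3 libraries, and the other 3 were from cells that received 250 µM L-ascorbic acid 2-phosphate (AA2P), as its magnesium salt, after 6 h of culture. The labels give neither the length of the treatment nor a vehicle for the controls, nor do they state whether replicates were separate cultures or animals. The spread that enters the p-values may thus be technical.

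Notch receptors are single-pass membrane proteins that are switched on by ligands of the Jagged and Delta-like families on a neighbouring cell. Ligand binding exposes the receptor to cleavage by ADAM proteases and then by gamma-secretase, and the freed intracellular domain joins the DNA-binding protein RBPJ and a Mastermind coactivator in the nucleus. Among the genes that this complex turns on are the HES and HEY repressors and NRARP, a feedback inhibitor. In mouse Sertoli cells, Notch signalling has been reported to lower the stem cell factor GDNF and the retinoic acid-degrading enzyme CYP26B1 through HES1 and HEY1.

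Library totals ran from 18747307 to 23521291 reads. Levels are given as CPM, read counts scaled by library size and TMM factors, and a count of 0 allows a level of up to 3 counts, or 0.123 to 0.165 CPM by counting error alone. The third AA2P library was the closest to the controls, its log2 CPM correlating with theirs at 0.970 on average, against 0.959 and 0.961 for AA2P libraries 1 and 2. Among 16 Sertoli cell markers, 11 had a row and 6 were tested, of which SOX9, WT1, INHBB, KRT18 and VIM fell and AMH was at 36.4 ± 1.52 CPM in controls against 34.4 ± 2.35 with AA2P (SD, n = 3). DHH and INHA had at most 3 counts in every library, and KITLG, NR5A1 and AMHR2 were also below the count filter. The summed level of the 11 was 9989.7 to 10519.8 CPM in controls and 3990.5 to 4935 CPM with AA2P. Nearly all of it was VIM, at 9741 ± 269.6 CPM in controls and 4113 ± 457 CPM with AA2P. The 9 tubule epithelial markers counted here, such as PAX2 and CDH16, were all tested, and 7 rose and 2, EPCAM and EMX2, fell. The summed level of the 9 was 398 to 444 CPM in controls and 998 to 1309.9 CPM with AA2P. Most of that rise was LRP2, at 80.1 ± 13.9 CPM in controls and 637 ± 144 CPM with AA2P. In controls PAX2 and CDH16 were at 98.6 ± 3.32 and 32.9 ± 3.81 CPM. The identity of the cells rests on the labels and was not tested. Of all tested genes 26.0% rose and 26.1% fell by the test described below. The part of these marker differences in the results below was not tested. In such bulk libraries, fewer cells of a type and less RNA per cell cannot be told apart.

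Of the 9 members with a row, 7 had enough counts to be tested. At a Benjamini-Hochberg adjusted p of 0.05 in edgeR's quasi-likelihood fit 6 of them were called, 2 of which were higher in AA2P cells and 4 lower. By the same test 52.1% of all 12701 tested genes passed, 26.0% higher and 26.1% lower. The median log2 fold change was -0.54 over the 7 tested members and 0.00 over all tested genes. In 5 of the 7 members every library of one group lay beyond every library of the other, 1 higher and 4 lower with AA2P. That held for 59.3% of all tested genes, 29.8% higher and 29.5% lower. Changes of this size were common in these libraries: 11.7% of tested genes had a larger absolute log2 fold change than NOTCH3, the tested member that differed most.

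Scaling by library totals in place of TMM factors moved the median of all tested genes by 0.17 on the log2 scale. With it 59.4% of all genes passed, 45.1% higher and 14.3% lower, and 3 members were higher and 4 lower. Each of the 7 tested members kept its direction under TMM factors, DESeq2 size factors and library totals, as the plot of the changes under each scaling shows. Without AA2P library 3, 3 members were higher and 4 lower, where 26.8% of all genes were higher and 26.8% lower.

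**Figure D1:**
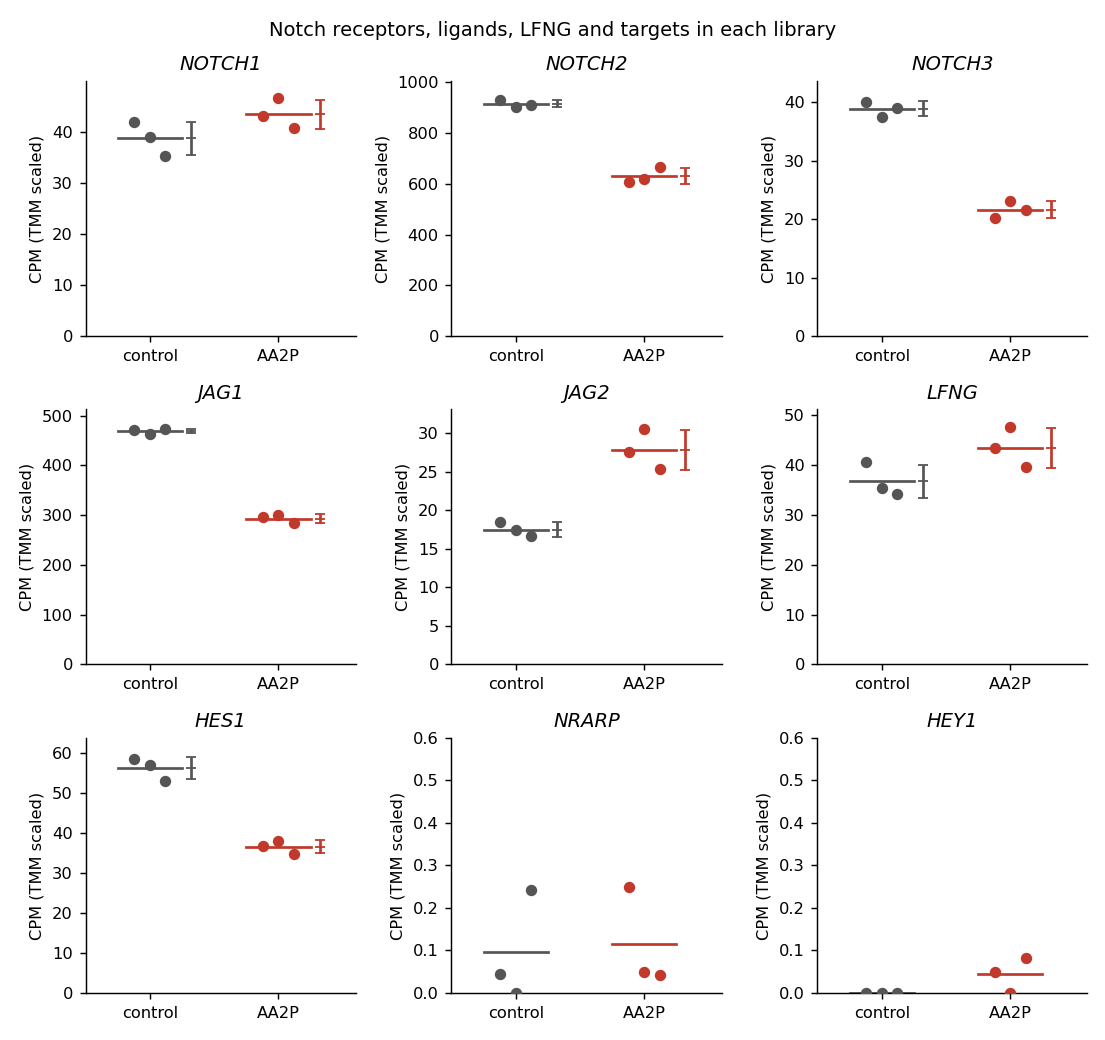
CPM scaled with TMM factors (vertical axes, each starting at 0) of the 9 members with a row in the control (grey) and AA2P (red) libraries, with points for libraries, lines for means and bars for ± SD (n = 3, not drawn for NRARP and HEY1). NOTCH2, NOTCH3, JAG1 and HES1 lie lower and JAG2 higher in all 3 AA2P libraries, NOTCH1 and LFNG overlap between groups, and NRARP and HEY1 stay at or under 0.250 CPM.

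Among the receptors, NOTCH2 and NOTCH3 fell and NOTCH1 did not pass the test. NOTCH2, a broadly expressed receptor, was at 932, 904 and 911 CPM in control libraries 1 to 3 and at 606, 621 and 666 CPM in AA2P libraries 1 to 3. The groups were well apart, and AA2P library 3 was the nearest to the controls. The log2 fold change of NOTCH2 was -0.54 with a standard error of 0.05, an adjusted p of 1.2e-07. NOTCH3, known for its role in vascular smooth muscle and pericytes, was at 40.1, 37.5 and 39.1 CPM in controls and at 20.2, 23.1 and 21.6 CPM with AA2P, again without overlap. It fell 1.80-fold, with a log2 fold change of -0.85, a standard error of 0.07 and an adjusted p of 4.2e-08. Of 9 smooth muscle and peritubular markers 5 were tested, 2 rose and 3 fell, where 26.0% of all tested genes rose and 26.1% fell. The summed level of the 9, mostly TAGLN and MYLK, was 556 to 566 CPM in controls and 471 to 539 CPM with AA2P. DES, among those that fell, went from 39.1 ± 1.92 to 8.35 ± 1.83 CPM, and ACTA2 was below the count filter. PDGFRB and MYH11, which define mural and smooth muscle cells, had at most 3 counts in every library.

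NOTCH1, the receptor most studied in Sertoli cells, was at 41.8, 38.9 and 35.3 CPM in controls and at 43.1, 46.5 and 40.7 CPM with AA2P. The lowest AA2P library lay below the highest control library. Its log2 fold change was 0.17 with a standard error of 0.07 and an adjusted p of 0.0675. NOTCH1 passed the test as higher with library totals (log2 fold change 0.34, adjusted p 9.2e-04), without control replicate 1 (0.22, adjusted p 0.0333) and without AA2P replicate 3 (0.21, adjusted p 0.0119). It was nearer 0 without control replicate 3 (0.10, adjusted p 0.299) and without AA2P replicate 2 (0.12, adjusted p 0.281).

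The Jagged ligands changed in opposite directions. JAG1 was at 471, 464 and 473 CPM in the controls and at 297, 299.6 and 284 CPM with AA2P. It had the least spread of the tested members in the controls relative to its mean (469 ± 4.75 CPM, SD, n = 3) and fell to 293 ± 8.28 CPM. Its log2 fold change was -0.68 with a standard error of 0.05, and the adjusted p of 3.9e-09 was the smallest among the members. JAG2, which signals through the same receptors, was at 18.5, 17.5 and 16.6 CPM in controls and at 27.6, 30.5 and 25.4 CPM with AA2P, with every AA2P library above every control. JAG2 rose 1.58-fold, with a log2 fold change of 0.66, a standard error of 0.09 and an adjusted p of 6.3e-06.

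LFNG extends O-fucose on Notch receptors and so alters which ligands they answer to. It was at 40.5, 35.4 and 34.1 CPM in controls and at 43.3, 47.5 and 39.5 CPM with AA2P, where the lowest AA2P library lay below control library 1. LFNG passed the test by a narrow margin, with a log2 fold change of 0.24, a standard error of 0.08 and an adjusted p of 0.0183. The call was lost without control replicate 2 (adjusted p 0.0743), control replicate 3 (0.101) or AA2P replicate 2 (0.122), at log2 fold changes of 0.21, 0.19 and 0.17.

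**Figure D2:**
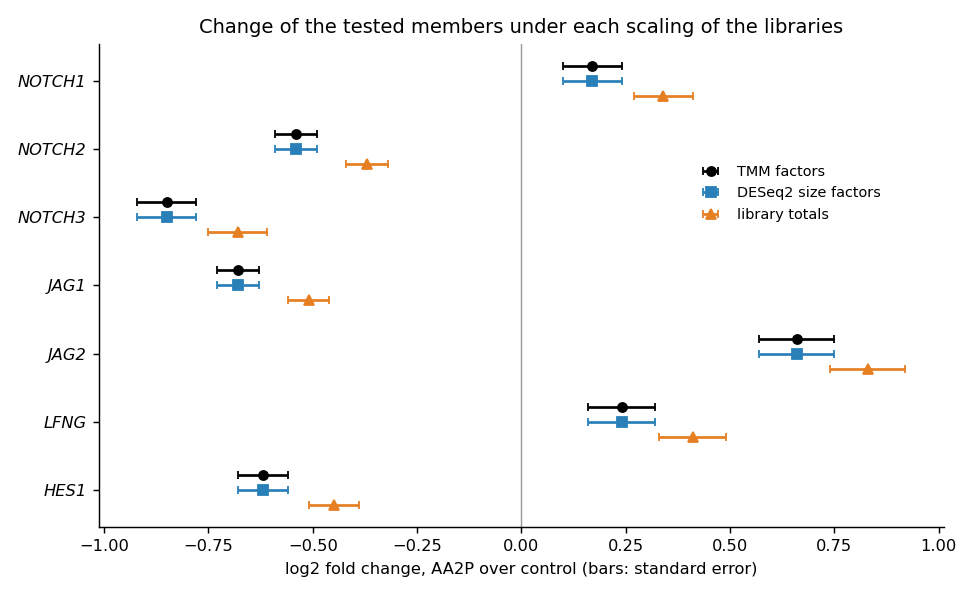
Log2 fold change of AA2P over control (horizontal axis, bars for the standard error) for the 7 tested members under TMM factors, DESeq2 size factors and library totals. Library totals shift every member to the right, and no member crosses 0.

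Among the targets, HES1 carried nearly all of the counts. HES1, a bHLH repressor and the best known direct target of the pathway, was at 58.6, 57.0 and 53.2 CPM in controls and at 36.8, 38.0 and 34.9 CPM with AA2P. The groups did not overlap, and HES1 fell 1.54-fold, with a log2 fold change of -0.62, a standard error of 0.06 and an adjusted p of 3.7e-07. HEY1, a repressor of the HES-related family, had 0 counts in each control library and 1, 0 and 2 counts in AA2P libraries 1 to 3. NRARP had 1, 0 and 5 counts in the controls and 5, 1 and 1 with AA2P. Both genes were below the count filter, and a difference in either was not detectable at this depth.

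The ratio of the reads of one member to another within a library is free of the scaling between libraries. The ratios were chosen after seeing the values, and since they also depend on transcript length only their change is read. The JAG2 to JAG1 ratio was 0.0392, 0.0377 and 0.0352 in controls and 0.0930, 0.102 and 0.0894 with AA2P, a difference of 1.34 on the log2 scale. The NOTCH1 to NOTCH3 ratio was 1.04, 1.04 and 0.904 in controls and 2.14, 2.01 and 1.88 with AA2P, a log2 difference of 1.02. The NOTCH1 to NOTCH2 ratio was also higher in every AA2P library than in any control, by 0.71, while NOTCH3 to NOTCH2 was lower in every AA2P library, by 0.31. HES1 to NOTCH2 overlapped between groups, with a log2 mean of -4.03 ± 0.06 in controls and -4.11 ± 0.13 with AA2P (SD, n = 3). LFNG to NOTCH2 was higher by 0.78. An exact two-sided permutation test gave p = 0.5 for HES1 to NOTCH2 and p = 0.1 for the other 5 of the 6 ratios, which is the smallest p that 3 against 3 libraries allow. After Benjamini-Hochberg adjustment over the 6 ratios these became 0.5 and 0.12, and a design of this size cannot reach 0.05. Since the ratios were picked with the values known, no conclusion is drawn from these p-values.

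**Figure D3:**
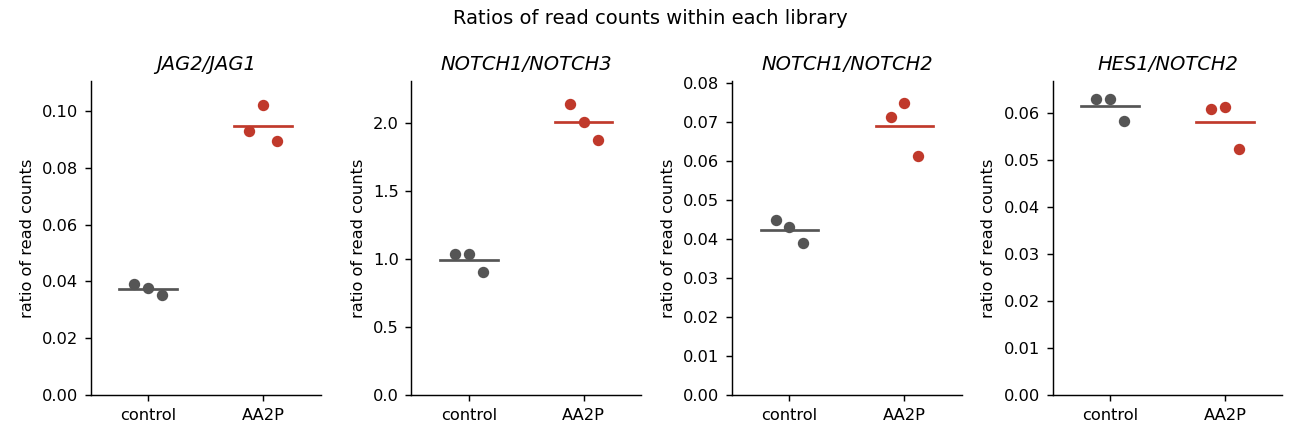
Ratio of read counts within each library (vertical axes, starting at 0) for JAG2 to JAG1, NOTCH1 to NOTCH3, NOTCH1 to NOTCH2 and HES1 to NOTCH2, in control (grey) and AA2P (red) libraries, with lines for the means. The first 3 ratios are higher in every AA2P library than in any control, and HES1 to NOTCH2 overlaps.

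Other genes of the pathway were taken from 8 lists ordered by role. Of 99 symbols 89 had a row and 81 were tested, of which 22 rose and 32 fell, 66.7% of those tested against 52.1% of all genes. Their median log2 fold change was -0.04, against 0.00 over all tested genes. With library totals 37 were higher and 20 lower, where 45.1% of all genes were higher and 14.3% lower, so the split depended on the scaling. Without AA2P replicate 2, 14 were higher, where 2869 of all 12950 tested genes were higher, against 3302 of 12701 with every library.

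The other receptors and ligands were sparse apart from CCN3. NOTCH4 and the Delta-like ligand DLL4, both known from endothelium, were at 1.07 ± 0.204 and 1.83 ± 0.284 CPM in controls and 1.28 ± 0.203 and 1.78 ± 0.202 CPM with AA2P (SD, n = 3), and neither passed the test. Of 5 endothelial markers with a row 3 were tested. PECAM1 rose from 2.25 ± 0.385 to 6.97 ± 0.874 CPM, while TIE1 and ESAM did not pass (adjusted p 0.113 and 0.301), and EMCN had at most 3 counts in every library. The summed level of the 5 was 5.36 to 7 CPM in controls and 11 to 13.2 CPM with AA2P, a difference made mostly by PECAM1. CCN3, a matricellular protein that can bind NOTCH1, fell from 5357 ± 36.5 to 1262 ± 45.5 CPM. EGFL7, a secreted antagonist of Notch from endothelium, fell from 6.87 ± 0.368 to 4.29 ± 0.766 CPM. The neural ligand DNER rose from 0.514 ± 0.162 to 0.932 ± 0.0250 CPM with an adjusted p of 0.0330. That call was lost without control replicate 1 (adjusted p 0.0674) or 3 (0.146) and without AA2P replicate 1 (0.0688), 2 (0.0758) or 3 (0.0511).

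The other HES and HEY repressors differed in direction. HEYL rose, with 5, 2 and 3 counts in controls and 24, 33 and 19 with AA2P, while HEY2 fell, with 17, 18 and 15 counts against 2, 6 and 4. Their log2 fold changes were 2.81 and -2.11 with standard errors of 0.44 and 0.42, and adjusted p-values were 5.6e-05 and 5.4e-04. Both rest on few counts. BHLHE40 and BHLHE41, related bHLH repressors of the circadian clock, fell from 297 ± 18.8 to 113 ± 13.5 CPM and from 75.3 ± 1.32 to 31.1 ± 1.02 CPM (SD, n = 3). HES6, an inhibitor of HES1, rose from 3.19 ± 0.678 to 4.34 ± 0.531 CPM with an adjusted p of 0.0494, a call lost without control replicate 2 (adjusted p 0.184) or 3 (0.160) or AA2P replicate 2 (0.192). HES4 was at 3.59 ± 0.544 CPM in controls against 3.02 ± 0.0434 with AA2P, with an adjusted p of 0.219.

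Of 10 genes that add sugars to the receptor 3 rose and 4 fell, where 26.0% of all tested genes rose and 26.1% fell. POFUT1, which places the O-fucose that LFNG extends, fell 1.73-fold from 101 ± 1.36 to 58.7 ± 1.68 CPM. The O-glucosyltransferase POGLUT3 fell from 86.5 ± 5.17 to 66.6 ± 2.86 CPM. GXYLT1 and GXYLT2, which add xylose to the O-glucose, moved apart. GXYLT1 rose from 85.2 ± 0.353 to 111 ± 12.2 CPM, and GXYLT2 fell from 76, 63 and 73 counts in controls to 2, 11 and 7 with AA2P. The log2 fold change of GXYLT2 was -3.46, or -4.06 without AA2P replicate 2. The fringe paralogue MFNG rose from 0.416 ± 0.240 to 1.04 ± 0.168 CPM with an adjusted p of 0.00782. RFNG, the third fringe, was at 26.6 ± 3.83 CPM in controls against 22.4 ± 2.46 with AA2P, with an adjusted p of 0.0540. It passed as lower without control replicate 3 (adjusted p 0.00959), AA2P replicate 2 (0.0326) or AA2P replicate 3 (0.0340), and without the count filter (0.00725). With library totals its log2 fold change was -0.08 against -0.25, with an adjusted p of 0.534.

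Of 9 genes of receptor and ligand cleavage 5 fell and 1 rose, by small amounts, where 26.1% of all tested genes fell and 26.0% rose. The sheddase ADAM17 fell from 94.5 ± 3.30 to 69.2 ± 3.71 CPM, while ADAM10, the main protease of ligand-bound Notch, was at 140.3 ± 3.18 CPM in controls against 134 ± 8.47 with AA2P and did not pass the test. Of the gamma-secretase subunits PSEN2, APH1A and NCSTN fell, with log2 fold changes of -0.26, -0.22 and -0.15, but with library totals none of these passed and NCSTN turned to 0.02. The NCSTN call, at an adjusted p of 0.0203, was also lost without control replicate 1 (adjusted p 0.0906) or 2 (0.0789) or AA2P replicate 2 (0.0834). With library totals 3 genes of the list were higher and 1 lower, where 45.1% of all genes were higher and 14.3% lower.

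Of 18 tested genes of endocytosis and ubiquitination 6 rose and 5 fell, where 26.0% of all tested genes rose and 26.1% fell. NEURL1B, an E3 ligase that drives ligand endocytosis, rose 2.45-fold from 31.1 ± 3.96 to 76.3 ± 7.27 CPM (SD, n = 3), and DTX4, a Deltex-family E3 ligase, rose from 5.52 ± 0.674 to 9.89 ± 1.13 CPM. The E3 ligase NEDD4 fell from 66.4 ± 3.32 to 44.3 ± 2.13 CPM. AAK1, a kinase of clathrin adaptors, fell from 192 ± 5.32 to 158 ± 9.03 CPM, a call lost with library totals (adjusted p 0.0712). DTX1 and NEURL3, chosen after seeing their values, rest on few counts. DTX1, also known as a Notch target in lymphocytes, fell from 23, 21 and 22 counts in controls to 3, 2 and 12 with AA2P, and NEURL3 rose from 4, 0 and 5 counts to 36, 14 and 25. The log2 fold change of DTX1 was -2.02, or -3.06 without AA2P replicate 3. With library totals 12 genes of the list were higher and 2 lower, where 45.1% of all genes were higher and 14.3% lower.

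In the nuclear complex RBPJ was at 100.5 ± 8.43 CPM in controls against 93.5 ± 5.33 with AA2P (SD, n = 3), with a log2 fold change of -0.10, a standard error of 0.06 and an adjusted p of 0.186. With library totals its log2 fold change was 0.07. Of 22 tested genes of the list 9 rose and 5 fell, or 13 and 2 with library totals. Of all tested genes 26.0% rose and 26.1% fell, or 45.1% and 14.3% with library totals. The Mastermind coactivators differed in direction, MAML2 rising from 55.2 ± 1.21 to 74.4 ± 4.21 CPM and MAML3 falling from 18.4 ± 0.953 to 12 ± 1.49 CPM. TLE1, a Groucho corepressor that HES proteins recruit, fell 2.13-fold from 69.3 ± 2.76 to 32.4 ± 4.31 CPM, and the acetyltransferase KAT2B rose from 7.64 ± 0.0229 to 15.1 ± 3.96 CPM.

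Of 9 tested genes listed here as reported Notch targets in other tissues 6 fell, where 26.1% of all tested genes fell. With library totals 5 were lower and 2 higher, where 14.3% of all genes were lower and 45.1% higher. SOX9, which is also a Sertoli cell marker, fell from 11.6 ± 0.647 to 2.22 ± 0.459 CPM (SD, n = 3). PLAUR, the urokinase receptor, fell from 46.8 ± 1.42 to 15.6 ± 3.58 CPM, and NFKB2, an NF-kappaB subunit, from 113 ± 0.688 to 65.1 ± 6.36 CPM. TCIM, whose place among Notch targets was not checked here, fell from 9.65 ± 0.816 to 2.74 ± 0.568 CPM.

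GDNF and CYP26B1 both fell. GDNF had 83, 63 and 84 counts in controls and 18, 28 and 37 with AA2P. CYP26B1 had 406, 263 and 377 counts against 54, 56 and 109, without overlap. Their log2 fold changes were -1.55 and -2.34 with standard errors of 0.21 and 0.16, and adjusted p-values were 9.0e-06 and 3.9e-09. Both were highest in library 3 among the AA2P libraries, at 1.52 CPM for GDNF and 4.48 CPM for CYP26B1.

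**Figure D4:**
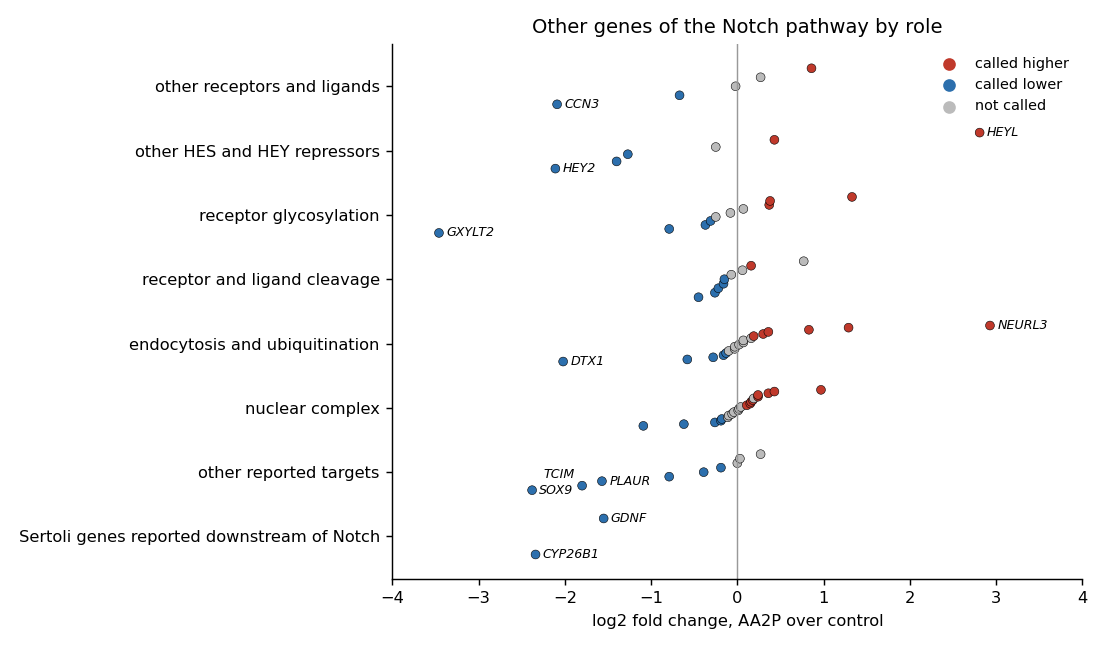
Log2 fold change of AA2P over control (horizontal axis) for the 81 tested other genes of the pathway, in a row per role, coloured by the call at an adjusted p of 0.05; the genes farthest from 0 are named and the vertical offset within a row only separates points. In the first 6 roles genes are called in both directions, and the called genes of the last 2 roles lie below 0 under TMM scaling (with library totals 2 reported targets were called higher).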

How the data were processed

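Per the labels' protocols, TRIzol RNA was run on 1 lane of a HiSeq X-Ten. Tools named in the submitters' processing notes are bcl2fastq and HISAT2 2.0.5. What counted the reads, with which strand setting, annotation or build, is not given in the sources used here, so reads of overlapping and antisense genes cannot be told apart. The authors deposited raw whole-number counts per Ensembl pig gene, and all other values were computed from them. A table of gene names gave symbols for 13141 of 17670 rows.

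The model was edgeR 4.0.16 (R 4.3.3), quasi-likelihood, with the group alone, TMM factors (0.941 to 0.945 in controls, 1.05 to 1.07 with AA2P), the filterByExpr filter, and p-values adjusted by Benjamini-Hochberg over 12701 genes. Standard errors are |log2 fold change| divided by the root of the F statistic. The procedure was tested on simulated data with 50 genes changed at each log2 size. It recovered 39 at a size of 0.5, 46 at 1 and all 50 at 2 and at 3. Of its 197 calls 12 were false, or 6.09%. Far fewer genes were changed there than were called in these data, so the simulation does not cover that setting. Each library counted once. Chi-square per degree of freedom between replicates was 2.67 to 12.1, above sampling noise, which does not show whether they were separate cultures or animals.

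The members, gene lists and ratios were chosen with earlier results of these data known. All members are described, with up to 4 called genes of each other list by smallest p and 12 fixed names, of which HES5 was not analysed here. Outside this rule, DTX1 and NEURL3 were chosen after seeing their values, and ADAM10 was also named. 1 marker of the tubule epithelial list is not reported here. Levels were not compared between genes, since no transcript lengths were at hand. Alternatives were DESeq2 size factors, library totals, dropping the filter, requiring 1 CPM in 3 libraries, Wald tests in DESeq2 1.42.0, limma-voom (limma 3.58.1), a threshold of 0.01, a replicate block, and leaving out each library in turn.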

Additional observations from a re-analysis of the deposited data

How the results depend on the processing

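Of the 7 tested members, all kept their direction and 5 their side of the threshold in all 14 alternatives; the exceptions were NOTCH1 and LFNG. LFNG also missed an adjusted p of 0.01, which left 1 member higher. Leaving out 1 library at a time gave 1 to 3 members called higher. Of all tested genes 2547 of 12701 were higher at 0.01. With 1 library left out, from 2869 of 12950 to 3438 of 12808 were. With library totals 5727 of all tested genes were called higher and 1822 lower, and of the other pathway genes 37 higher and 20 lower. At an adjusted p of 0.01, 13 other pathway genes were called higher, where 2547 of all tested genes were. When 1 library was left out, 14 to 21 were called higher, where 2869 to 3438 of all tested genes were. Of 38 other named genes, ADAM10 not among them, 35 kept their direction. DNER and HES6 missed the threshold with the DESeq2 Wald test (adjusted p 0.126 and 0.0923), DNER also without the filter (0.0563) and HES6 with limma-voom (0.0531). DLL4 turned to 0.15 with library totals and lay between -0.15 and 0.05 when 1 library was left out. NCSTN and RBPJ turned to 0.02 and 0.07 with library totals. That scaling leaves out the TMM factors, and the cause of the other changes was not tested.

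Same-numbered control and AA2P libraries did not deviate together, with correlations of their deviations from the group means of -0.04, -0.02 and -0.06, and no library correlated best with its own number. With the replicate number as a block, 2 members were called higher and 4 lower, as without it, and 3094 and 3110 of all tested genes against 3302 and 3313. The block changed 2 calls among the members and the 38 other named genes: HES6 missed the threshold (adjusted p 0.0517) and RFNG passed it (0.0348).

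Depth limits HEY1, NRARP, HEYL, HEY2, GXYLT2, MFNG, DNER, DTX1 and NEURL3, whose values rest on few reads.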

Other observations

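Among 10 markers of multiciliated cells, a cell fate that Notch signalling is known to restrain, 9 had a row and 8 were tested. Of these 6 rose, where 26.0% of all tested genes rose, and with library totals 7 were higher, where 45.1% of all genes were. Their summed level was 284 to 306 CPM in the control libraries and 594 to 609 CPM in the AA2P libraries, without overlap. Most of that sum came from FOXJ1, which rose from 153 ± 15.1 to 383 ± 14.2 CPM, and RFX3, which rose from 107 ± 5.30 to 160.1 ± 13.8 CPM (SD, n = 3). GMNC and CCNO rose to 0.896 ± 0.177 and 1.03 ± 0.191 CPM, MCIDAS was below the count filter, and MYB and DEUP1 did not pass the test, with log2 fold changes of 0.23 and -0.33. These genes were picked out after their values were seen, so the shares of all genes give scale only. A link between them and the Notch members was not tested. The markers of germ cells stayed low, at summed levels of 1.76 to 2.23 CPM in controls and 1.40 to 1.63 CPM with AA2P, and those of Leydig cells at 5.58 to 5.84 and 6.35 to 7.38 CPM. Of 6 macrophage markers with a row 3 were tested, and they differed in direction. AIF1 rose from 0.726 ± 0.314 to 5.16 ± 0.348 CPM and CD14 fell from 28.5 ± 1.73 to 20.5 ± 2 CPM, while MRC1 did not pass and CSF1R and CD163 had at most 3 counts in every library. The summed level of that list, mostly CD14, was 28.9 to 31.2 CPM in controls and 25.2 to 28.4 CPM with AA2P.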
